A study of Homo sapiens with 16 samples.

Results

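The CIS and SOCS family was followed through its 8 genes, CISH and SOCS1 to SOCS7, which were taken from the 62710 human genes of the count tables by symbol. The rule uses no measured value, but the family was picked for description with earlier results of these data known. The study asked whether CREBBP, a lysine acetyltransferase that serves as a transcriptional coactivator, influences the genes that IL4 induces in lymphoma cells. RNA-seq of ribosomal RNA depleted RNA gave 16 libraries from 4 human B-cell lymphoma lines, named SUDHL4, OCILY7, SUDHL10 and DOHH2 in the labels, with 1 library for each line in each of 4 groups. The groups are AAVS baseline (genotype label AAVS -/-, no IL4), AAVS IL4 (AAVS -/-, 10 ng/ml of IL4 for 4 h), CREBBP baseline (CREBBP -/-, no IL4) and CREBBP IL4 (CREBBP -/-, the same IL4 exposure). AAVS is an integration site on the genome that was cut as the control, so that all 16 libraries came from cells that carry a lentiviral Cas9 vector and guides. The targeted cells were kept as pools and not as clones, and a pool can hold cells with different edits. Line 1 is SUDHL4 and line 4 is DOHH2. OCILY7 and SUDHL10 are named in opposite order by the sample titles and by the cell line field, so these are called line 2 and line 3 here. Differences were taken within lines, so these names enter no test.

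In the GRCh38 annotation (GENCODE 44), CISH (ENSG00000114737) lies on the minus strand at chr3:50606489-50611774, SOCS3 (ENSG00000184557) on the minus strand at chr17:78356778-78360077, SOCS6 (ENSG00000170677) on the plus strand at chr18:70289045-70330199 and SOCS1 (ENSG00000185338) on the minus strand at chr16:11254417-11256204. SOCS2 (ENSG00000120833, chr12:93569814-93583487), SOCS4 (ENSG00000180008, chr14:55027230-55049489), SOCS5 (ENSG00000171150, chr2:46698952-46780245) and SOCS7 (ENSG00000274211, chr17:38351844-38405593) lie on the plus strand. Each is protein coding, and 4 of them overlap another annotated gene: CISH with MAPKAPK3, SOCS1 with RMI2, SOCS2 with SOCS2-AS1 and SOCS5 with LINC01118.

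CISH encodes CIS, the founding member of a family of intracellular proteins that carry an SH2 domain, which binds phosphotyrosine, and a SOCS box, which recruits elongin B, elongin C and cullin 5 to mark bound proteins for degradation. CISH, SOCS1, SOCS2 and SOCS3 are transcribed in response to STAT factors and limit the cytokine signal that induced them. CIS and SOCS2 bind phosphorylated receptor tails, whereas SOCS1 and SOCS3 also hold a kinase inhibitory region that blocks JAK kinases directly. SOCS4 to SOCS7 are better known for acting on receptor tyrosine kinases such as the EGF and insulin receptors. IL4 signals through the IL4 receptor, JAK1, JAK3 and STAT6 in B cells, and SOCS1 is a recurrent target of mutation in B-cell lymphomas.

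The promoter sequences of CISH and SOCS3 are shown because these genes had the highest fold changes of the family with IL4. They are the RefSeq windows on GRCh38.p14 from 250 bases before to 50 bases after the transcription start, 5′ to 3′ on the strand of the gene, and capitals mark matches to TTCNNNGAA, the spacing that many STAT dimers bind. SOCS3 has 2 listed starts, and neither is the annotated 5′ end of the gene.
CISH, chr3:50611725-50612024, minus strand: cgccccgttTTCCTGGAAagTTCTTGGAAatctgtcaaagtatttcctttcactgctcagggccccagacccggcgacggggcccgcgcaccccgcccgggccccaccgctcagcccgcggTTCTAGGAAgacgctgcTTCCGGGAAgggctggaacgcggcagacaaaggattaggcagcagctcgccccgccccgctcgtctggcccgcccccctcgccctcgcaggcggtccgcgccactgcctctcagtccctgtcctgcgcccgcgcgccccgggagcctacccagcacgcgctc
SOCS3, chr17:78360876-78361175, minus strand: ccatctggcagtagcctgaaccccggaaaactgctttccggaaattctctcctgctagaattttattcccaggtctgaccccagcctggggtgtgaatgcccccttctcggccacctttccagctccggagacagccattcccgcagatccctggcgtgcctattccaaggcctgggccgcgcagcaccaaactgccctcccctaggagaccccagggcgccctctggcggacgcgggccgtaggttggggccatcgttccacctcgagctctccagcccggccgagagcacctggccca
SOCS3, chr17:78359618-78359917, minus strand: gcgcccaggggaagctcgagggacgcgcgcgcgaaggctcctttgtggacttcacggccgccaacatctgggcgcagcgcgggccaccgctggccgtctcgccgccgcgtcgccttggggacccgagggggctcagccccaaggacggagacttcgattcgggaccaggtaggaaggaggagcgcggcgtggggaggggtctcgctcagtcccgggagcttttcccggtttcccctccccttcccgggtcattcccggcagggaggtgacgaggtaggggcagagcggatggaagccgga

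The CISH window held 4 matches, which were TTCCTGGAA from 241 to 233 bases, TTCTTGGAA from 230 to 222 bases, TTCTAGGAA from 129 to 121 bases and TTCCGGGAA from 112 to 104 bases upstream of the start, without overlap. The motif reads the same on both strands. Of 35116 promoter windows of the same length, 7.66% held at least 1 match and 7 windows (0.0199%) held 4 or more. Neither SOCS3 window held a match, nor did the windows of SOCS1, SOCS4 and SOCS6. The annotated 5′ end of SOCS3, at 78360077, lies in neither of its windows, so the bases next to that end were not searched. The wider motif that STAT6 favours, with 1 more base between TTC and GAA, was in 6.44% of all windows and in none of the 6 windows of the 5 members in the table. The windows of SOCS2, SOCS5 and SOCS7 were not analysed here. These are letter matches in a short window and were not tested for binding.

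Total counts per library ranged from 19649735 to 61981976, with the lowest median in the AAVS IL4 group (29790813.5). CREBBP itself was read at 205 to 360 CPM (counts per 1000000 of the summed count of a library) in AAVS baseline, 190 to 379 in AAVS IL4, 187 to 278 in CREBBP baseline and 69.9 to 245 in CREBBP IL4, so the ranges of targeted and control pools overlapped. A count over the whole gene does not measure the edited protein, which the study reported as lost in its targeted pools by immunoblotting. All 8 B-lineage markers were at 1 CPM or more in each library. The AAVS IL4 libraries as a group stood apart from the other 12, with all 4 above all of the other 12 for 965 of 21932 genes (4.4%), CISH, SOCS3 and SOCS6 included. T-cell genes were among them: the sum of 13 T-cell markers ran from 35.2 to 214 CPM with AAVS IL4 and from 2.55 to 38.5 CPM in the other 12, 11 of the 13 were above all of the other 12, and CD2 was at 0 in the other 12. The sum of 10 markers of resting B cells was 565 to 3705 CPM against 61.5 to 303 CPM, with 6 of 10 above, and IGHD at 0 in the other 12. The sum of 6 NK-cell markers was 4.63 to 22.1 CPM against 0.533 to 2.27 CPM, with 2 of 6 above. In the remaining lists 3 of 6 plasma-cell, 1 of 10 myeloid, 1 of 6 stromal, 0 of 8 germinal centre and 0 of 8 B-lineage markers were above the other 12. The same 9 T-cell markers were under 1 CPM in all of the other 12 libraries. Of the 10 resting B-cell markers, 4 were under 1 CPM in all 12, 2 were at 1 CPM or more in all 12, and the rest varied. These transcripts move with every result that uses the AAVS IL4 libraries, and their part in those results was not tested. In a bulk library, more or fewer cells of a type and more or less RNA per cell cannot be told apart.

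**Figure D1:**
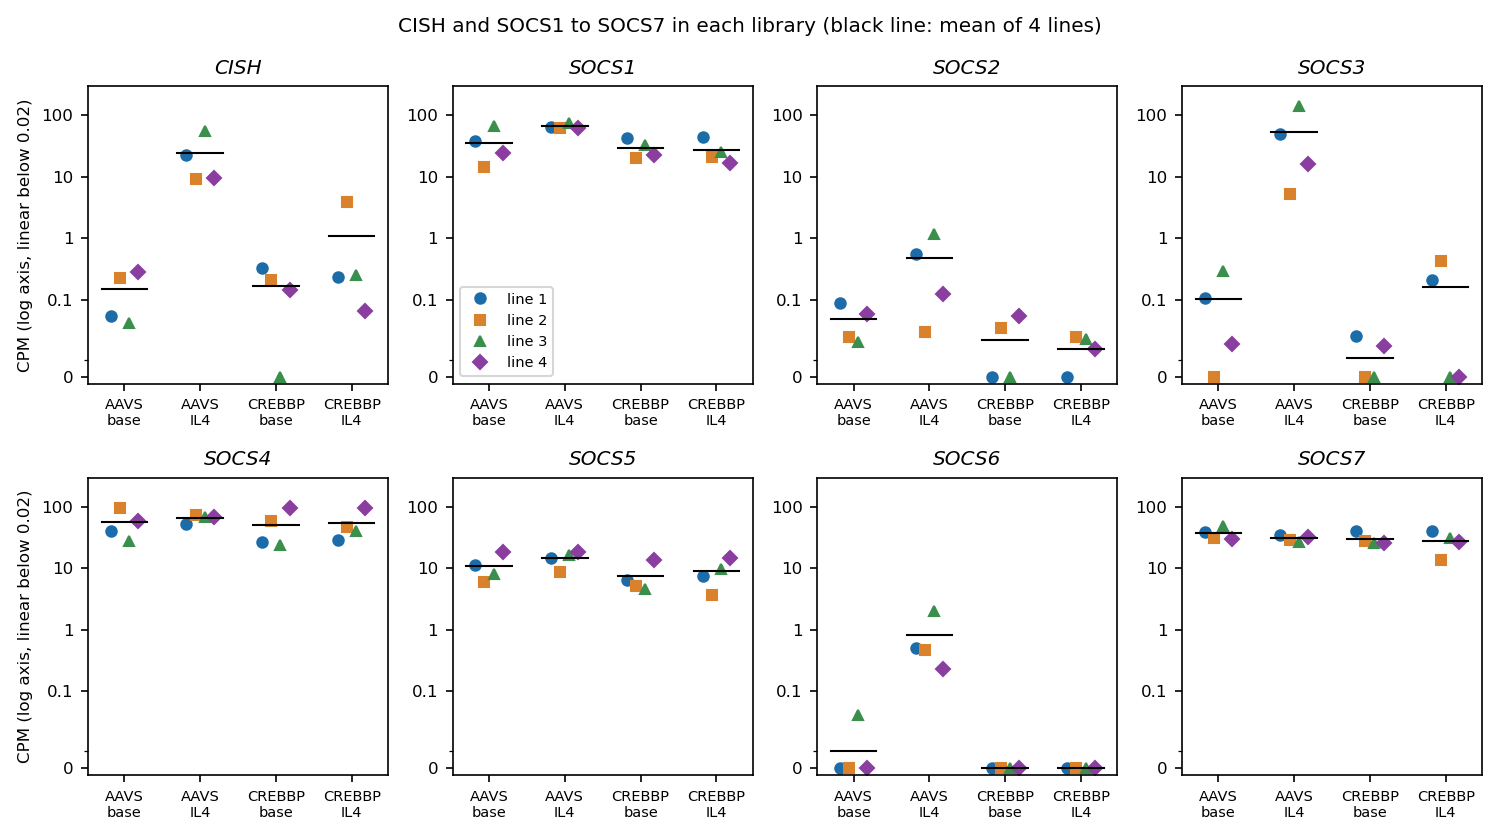
CPM of each family member in each of the 16 libraries, on a log axis that is linear below 0.02 so that libraries at 0 are shown, with 1 symbol per line and a black bar for the mean of 4 lines in each group. CISH, SOCS3 and SOCS6 are higher in all 4 AAVS IL4 libraries than in the other 12, while SOCS4, SOCS5 and SOCS7 overlap in all groups.

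The family divided into 4 genes that were read in every library and 4 that were close to 0 without IL4. SOCS1, SOCS4, SOCS5 and SOCS7 had counts in all 16 libraries, whereas SOCS6 was at 0 in 11, SOCS3 in 5, SOCS2 in 3 and CISH in 1 of the 16. To compare genes, CPM was divided by the length of the union of exons. In AAVS baseline SOCS1 led with 20.02 ± 12.6 CPM per kilobase (SD, n = 4), followed by SOCS4 with 7.95 ± 4.29, SOCS7 with 4.12 ± 0.9904 and SOCS5 with 1.47 ± 0.733. The next members were more than an order of magnitude lower, with 0.0378 ± 0.0480 CPM per kilobase for SOCS3, 0.0297 ± 0.0242 for CISH, 0.00739 ± 0.00495 for SOCS2 and 0.00176 ± 0.00352 for SOCS6. Neighbours in this order differed beyond their spread, meaning the same direction in 4 of 4 lines and a mean log2 difference above its SD, only for SOCS7 over SOCS5 and for SOCS5 over SOCS3. The CREBBP baseline group kept SOCS1 (16.5 ± 5.59 CPM per kilobase), SOCS4 (7.27 ± 4.67), SOCS7 (3.34 ± 0.768) and SOCS5 (1.005 ± 0.575) in the same order at the top, with CISH at 0.0336 ± 0.0269 next.

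With IL4 the order changed in the AAVS pools and not at the top of the CREBBP pools. In AAVS IL4 SOCS1 stood at 36.8 ± 2.95 CPM per kilobase, SOCS3 at 19.6 ± 22.9, SOCS4 at 9.34 ± 1.31 and CISH at 4.81 ± 4.31. SOCS7 (3.40 ± 0.380), SOCS5 (1.93 ± 0.540), SOCS6 (0.139 ± 0.141) and SOCS2 (0.0722 ± 0.0802) followed, and again only SOCS7 over SOCS5 and SOCS5 over SOCS6 differed beyond their spread. The exons annotated for CISH cover 5056 bases and so hold most of its introns, and with the canonical transcript of 2019 bases, a length chosen after seeing the data, CISH ranked 3 of 8 in AAVS IL4 at 12.04 CPM per kilobase. The summed level of the family was 33.6 ± 9.81 CPM per kilobase in AAVS baseline, 76.1 ± 30.3 in AAVS IL4, 28.1 ± 4.43 in CREBBP baseline and 27.2 ± 5.68 in CREBBP IL4. Within that sum SOCS3 took between 0 and 0.220% in the AAVS baseline libraries and between 3.53% and 43.6% in the AAVS IL4 libraries, and CISH took 0.0170% to 0.203% and 3.20% to 9.17%.

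**Figure D2:**
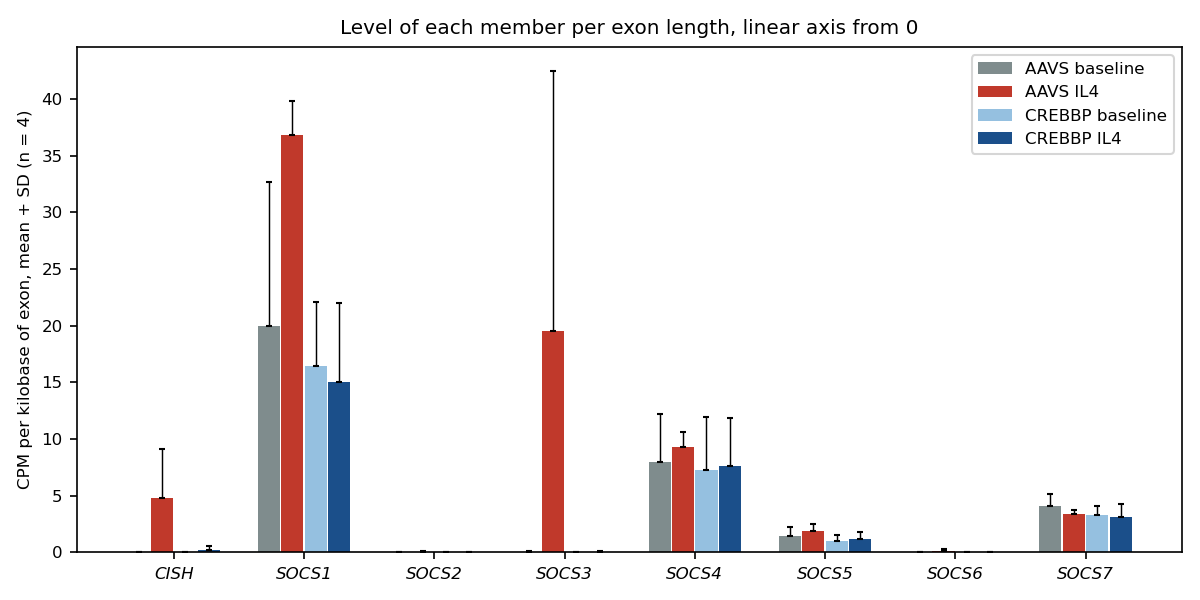
Level of each member in CPM per kilobase of exon on a linear axis from 0, with bars for the mean of 4 lines in each group and error bars of 1 SD upwards. SOCS1 is highest in each group, and SOCS3 and CISH are visible almost only in AAVS IL4, where SOCS3 has an SD of 22.9 around a mean of 19.6.

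The first comparison asked which members IL4 changed in the AAVS pools. SOCS3, CISH and SOCS6 rose, and SOCS1, SOCS4, SOCS5 and SOCS7 did not pass the test, while SOCS2 had too few counts to be tested. The quasi-likelihood test of edgeR was used, with a term for each line and a threshold of 0.05 on the Benjamini-Hochberg adjusted p. Thus 3 of the 7 members that passed the filter on low counts were called higher, where 2.39% of 20310 genes were called higher in this comparison. These 3 did not pass the filter in the comparison of the baseline groups. They entered this test through the AAVS IL4 libraries, in which they were high, so the count is a description and no support for a response of the family.

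SOCS3, the inhibitor that binds both receptor and JAK, was read at 0.107, 0, 0.287 and 0.0191 CPM in lines 1 to 4 of AAVS baseline and at 49.5, 5.16, 143 and 16.2 CPM in the same lines of AAVS IL4. The groups did not overlap, and line 3 was highest and line 2 lowest with IL4. In counts this was 6, 0, 14 and 1 against 1270, 175, 2811 and 771. The fitted log2 fold change was 8.89 (SE 0.35, adjusted p = 0.000441, edgeR), higher in 4 of 4 lines, and the call held in each alternative fit, with adjusted p between 3.56e-57 and 0.0163.

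CISH stood at 0.0535, 0.221, 0.0410 and 0.286 CPM in lines 1 to 4 of AAVS baseline and at 22.9, 9.25, 55.6 and 9.51 CPM in AAVS IL4. Each library with IL4 was far above each library without it, and lines 3 and 1 again led. The log2 fold change was 6.95 (SE 0.94, adjusted p = 0.0220, edgeR), higher in 4 of 4 lines. Without line 1 the log2 fold change was 6.42 and the call was lost (adjusted p = 0.1001, edgeR), in a fit that called 64 genes in place of 488. MAPKAPK3 overlaps CISH on the opposite strand. The study names a stranded library kit, but the strand setting of the counting is not given in the sources used here. Whether the counts keep the 2 genes apart where they overlap was not tested. MAPKAPK3 itself averaged 29.3 CPM in AAVS baseline and 26.5 CPM in AAVS IL4, with a log2 fold change of -0.26 (SE 0.24, adjusted p = 0.593, edgeR).

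SOCS6, whose product has been tied to insulin and KIT receptor signalling, also rose, at much lower counts. It had 0, 0, 2 and 0 counts in lines 1 to 4 of AAVS baseline and 13, 16, 40 and 11 in AAVS IL4, or at most 0.0410 CPM against 0.507, 0.471, 2.04 and 0.231 CPM. The groups did not overlap. The log2 fold change was 5.99 (SE 0.86, adjusted p = 0.0244, edgeR) with all 4 lines higher, and pooled over lines the 80 counts with IL4 and 2 without gave a ratio of 62.4 with a 95% interval (exact binomial, counting error only) from 16.7 to 524. The log2 fold change was 5.72 without line 1, 7.03 without line 3 and 5.95 without line 4, and the call was lost in each (adjusted p = 0.137, 0.131 and 0.0789, edgeR), while the genes called over all fell from 488 to 64, 350 and 267.

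SOCS1, the strongest inhibitor of JAK kinases in the family, was at 38.0, 14.2, 66.4 and 24.6 CPM in lines 1 to 4 of AAVS baseline and at 64.7, 62.2, 73.6 and 63.0 CPM in AAVS IL4. The AAVS IL4 libraries lay close together (65.9 ± 5.28 CPM, SD, n = 4) while the baseline libraries were spread (35.8 ± 22.6), and line 3 at baseline lay inside the range with IL4. The log2 fold change was 1.04 (SE 0.38, adjusted p = 0.262, edgeR), with an unadjusted p of 0.0312 and adjusted p between 0.101 and 0.741 in the alternatives. In line 3 the direction depended on the scaling, since its CPM was higher with IL4 and its TMM-scaled log2 CPM lower by 0.21. RMI2 overlaps SOCS1 on the opposite strand and had a log2 fold change of 0.11 (SE 0.20).

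SOCS4, SOCS5 and SOCS7, which were read well in every library, did not pass the test. SOCS4 was at 56.0 ± 30.3 CPM in AAVS baseline and 65.8 ± 9.26 in AAVS IL4 (log2 fold change 0.31, SE 0.25, adjusted p = 0.536, edgeR). SOCS5 was at 10.99 ± 5.49 and 14.4 ± 4.05 CPM (0.41, SE 0.24, adjusted p = 0.424, edgeR). SOCS7 was at 37.1 ± 8.92 and 30.6 ± 3.42 CPM (-0.31, SE 0.25, adjusted p = 0.529, edgeR). All of these groups overlapped. SOCS2, the regulator of growth hormone signalling, had 5, 1, 1 and 3 counts at baseline and 14, 1, 23 and 6 with IL4, and its groups overlapped as well. In all, the AAVS IL4 libraries were above all AAVS baseline libraries for CISH, SOCS3 and SOCS6, 3 of the 7 members tested, where this held for 6.34% of the genes tested. As these 3 passed the filter through the AAVS IL4 libraries, this count too is only a description.

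The marker transcripts differed between the lines of AAVS IL4 as well. The T-cell sum in lines 1 to 4 of AAVS IL4 was 110, 74.2, 214 and 35.2 CPM and the resting B-cell sum was 2026, 897, 3705 and 565 CPM. Line 3, highest for both sums, was highest for SOCS3, CISH, SOCS6 and SOCS2, and line 1 came second for each sum and for each of these genes. Line 2 was above line 4 for both sums and for SOCS6, and below it for SOCS3, CISH and SOCS2. The NK-cell sums (10.2, 4.63, 22.1 and 6.83 CPM in lines 1 to 4) and the plasma-cell sums (1127, 383, 2227 and 730 CPM) had the same order of lines as SOCS3, CISH and SOCS2.

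**Figure D3:**
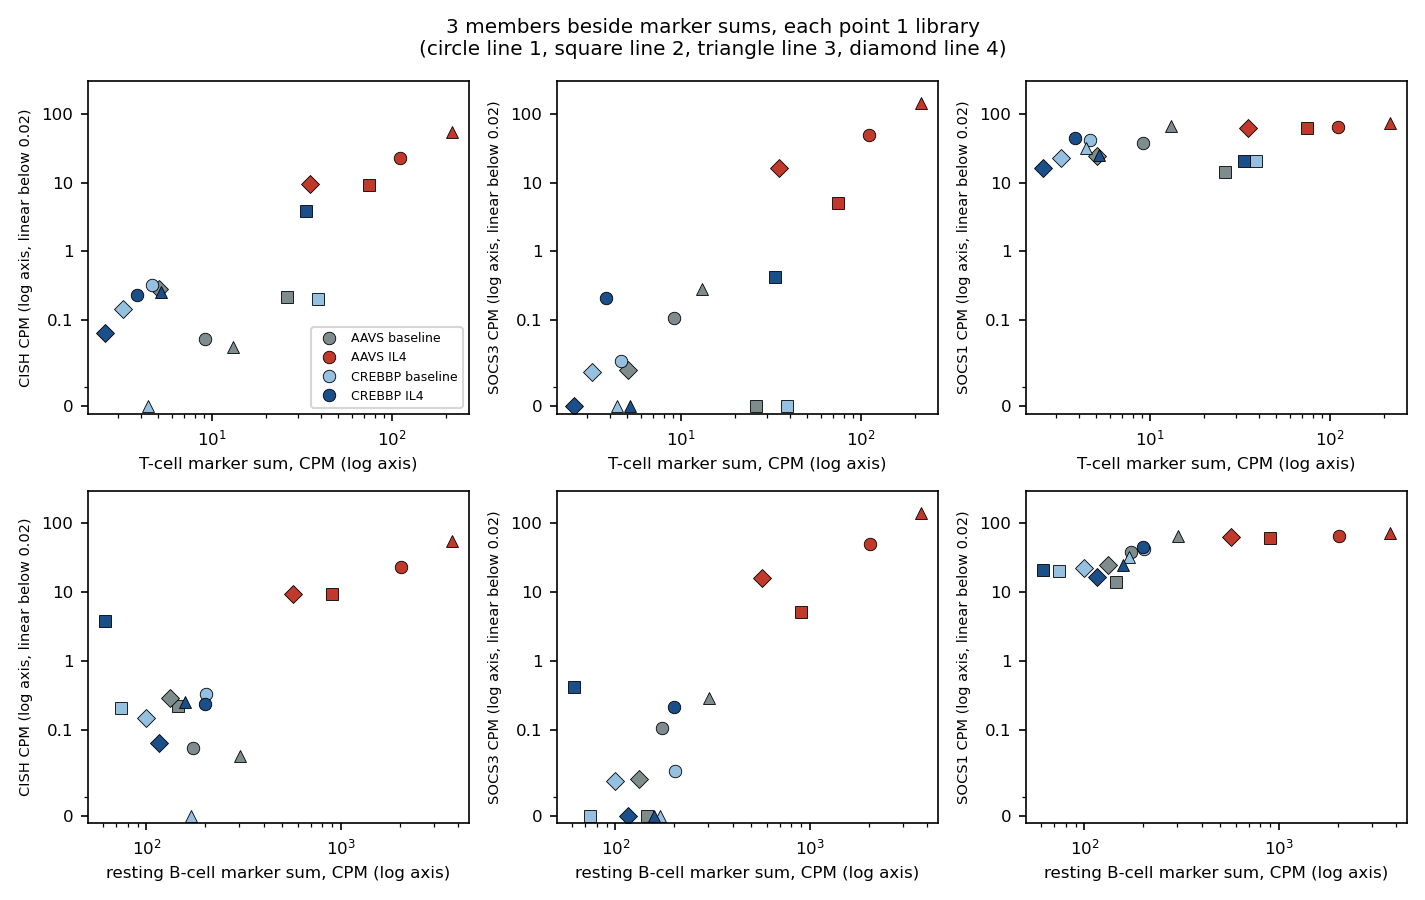
CPM of CISH, SOCS3 and SOCS1 (vertical, log axis that is linear below 0.02) against the summed CPM of T-cell markers (upper row) and resting B-cell markers (lower row, horizontal log axes), with 1 point per library, colour for the group and symbol for the line. The 4 AAVS IL4 libraries lie to the right, and for CISH and SOCS3 at the top. The exception is line 4 on the T-cell axis, at 35.2 CPM against 38.5 CPM in CREBBP baseline of line 2. The CREBBP IL4 library of line 2 reaches 3.83 CPM of CISH at a T-cell sum of 33.1 CPM and the lowest resting B-cell sum (61.5 CPM). In each CREBBP IL4 library 10 of the 13 T-cell markers were under 1 CPM, so that T-cell sum rests on few markers.

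The same exposure to IL4 in the CREBBP pools addressed whether the family responds where CREBBP was targeted. No member passed the test. Of the 5 members that passed the filter, edgeR called 0, with 0 also at an unadjusted p under 0.05 and 0 by DESeq2, and over all 18282 genes it called 0 (0%), with 502 (2.75%) at an unadjusted p under 0.05 and 1 gene called by DESeq2. This comparison holds no AAVS IL4 library.

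CISH was at 0.328, 0.206, 0 and 0.145 CPM in lines 1 to 4 of CREBBP baseline and at 0.232, 3.83, 0.255 and 0.0645 CPM in CREBBP IL4. Line 2 stood apart with 154 counts with IL4 against 6 without, line 3 went from 0 to 11 counts, and lines 1 and 4 were lower with IL4. That line 2 library had a T-cell marker sum of 33.1 CPM, against 2.55 to 5.17 CPM in the other 3 CREBBP IL4 libraries, and the lowest resting B-cell sum of the 4 (61.5 CPM). The T-cell sum of line 2 was as high without IL4, at 38.5 CPM in CREBBP baseline, where CISH was 0.206 CPM. Line 2 was also highest in AAVS baseline, at 25.9 CPM against 5.08 to 13.0 CPM in the other lines, with CISH at 0.221 CPM. Of the 13 T-cell markers, 11 were under 1 CPM in each CREBBP baseline library and 10 in each CREBBP IL4 library. CD2, CD3D, CD7 and TRBC1 were at 0 in both groups, so these sums rest on few markers. Whether the sums follow T cells was not tested. The log2 fold change of CISH was 1.59 (SE 1.18, adjusted p = 0.924, edgeR), with 2 of 4 lines higher on the TMM scale. SOCS3 did not pass the filter, with 1, 0, 0 and 1 counts at baseline and 10, 17, 0 and 0 with IL4. Pooled over lines, its 27 counts against 2 gave a ratio of 11.9 (95% interval 2.996 to 103, counting error only), and these counts came from lines 1 and 2 alone.

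SOCS1 was at 42.2, 20.5, 32.4 and 22.6 CPM in CREBBP baseline and at 44.8, 20.7, 25.2 and 16.6 CPM in CREBBP IL4, with a log2 fold change of -0.13 (SE 0.21, adjusted p = 0.944, edgeR). Line 1 was highest and lines 2 and 4 were lowest in both groups. SOCS4 (0.19, SE 0.15), SOCS5 (0.26, SE 0.21) and SOCS7 (-0.14, SE 0.16) also had log2 fold changes within 2 SE of 0, with adjusted p of 0.924, 0.924 and 0.928 (edgeR). SOCS6 was at 0 in all 8 CREBBP libraries, where 3 counts correspond to 0.0484 to 0.103 CPM, and SOCS2 had at most 3 counts.

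At baseline, where CREBBP and AAVS pools were compared without IL4, only SOCS1, SOCS4, SOCS5 and SOCS7 passed the filter. None passed the test: edgeR called 0 of these 4, with 0 at an unadjusted p under 0.05 and 0 by DESeq2, and 0 of 18936 genes (0%), with 2422 (12.8%) at an unadjusted p under 0.05 and 511 called by DESeq2. SOCS1 averaged 29.5 ± 9.99 CPM in CREBBP baseline against 35.8 ± 22.6 in AAVS baseline (log2 fold change -0.017, SE 0.24, adjusted p = 0.984, edgeR). SOCS5 and SOCS7 were lower in 4 of 4 lines on the TMM scale, by log2 fold changes of -0.47 (SE 0.24, adjusted p = 0.449) and -0.20 (SE 0.20, adjusted p = 0.704, edgeR), with overlapping groups. In CPM line 1 of SOCS7 went the other way, from 39.4 to 40.4. SOCS4 was at 51.2 ± 32.9 against 56.0 ± 30.3 CPM (-0.10, SE 0.24, adjusted p = 0.887, edgeR). CISH had 13, 6, 0 and 8 counts against 3, 9, 2 and 15, and SOCS3 had at most 1 count per library in CREBBP baseline against up to 14 in AAVS baseline.

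With IL4 present, the CREBBP pools were compared with the AAVS pools. SOCS3 was lower in the CREBBP pools, and CISH and SOCS1 were lower in each line without passing the adjusted threshold. SOCS3 averaged 0.158 ± 0.202 CPM in CREBBP IL4 against 53.5 ± 62.6 in AAVS IL4, with a log2 fold change of -7.89 (SE 1.63, adjusted p = 0.0438, edgeR), lower in 4 of 4 lines. It was thus 1 of 6 members that passed the filter, where 3.42% of 19581 genes were called lower. With the CREBBP libraries alone SOCS3 did not pass the filter, so it entered this test through the AAVS IL4 libraries. The log2 fold change was -8.24 without line 1, -6.63 without line 3 and -7.33 without line 4, and the call was lost in each (adjusted p = 0.176, 0.140 and 0.117, edgeR), while the genes called over all fell from 859 to 104, 25 and 315.

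CISH averaged 1.09 ± 1.82 CPM against 24.3 ± 21.8, with a log2 fold change of -5.78 (SE 1.37, adjusted p = 0.0604, edgeR) and the smallest gap in line 2, where 3.83 stood against 9.25 CPM. Without line 2 it was -6.96 with an adjusted p of 0.000403, and over the alternatives the adjusted p ranged from 1.26e-09 to 0.231. SOCS1 averaged 26.8 ± 12.5 CPM against 65.9 ± 5.28, with no overlap between 16.6 to 44.8 and 62.2 to 73.6 CPM (log2 fold change -1.12, SE 0.30, adjusted p = 0.0751, edgeR, with 0.00722 to 0.235 in the alternatives). SOCS6 was at 0 in the CREBBP IL4 libraries and did not pass the filter. Where it was fitted, edgeR called it lower with no filter on low counts (log2 fold change -7.58, adjusted p = 0.000843), without line 2 (-7.78, adjusted p = 0.0457) and in 1 fit of all 16 libraries (-7.76, adjusted p = 0.00689), and not without line 3 (-6.86, adjusted p = 0.215) or line 4 (-7.95, adjusted p = 0.118). Against a floor of 3 counts per library in those libraries, its AAVS IL4 mean of 0.811 CPM was at least 12.7-fold higher. This bound is for the mean and not for each line, as lines 1 to 4 were at 0.507, 0.471, 2.04 and 0.231 CPM.

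The CREBBP IL4 libraries lay below all AAVS IL4 libraries for CISH, SOCS1, SOCS2, SOCS3 and SOCS6. Of the 6 members tested this was 3 (CISH, SOCS1 and SOCS3), where it held for 12.9% of the genes tested. SOCS3 entered that test through the AAVS IL4 libraries. For SOCS2 the separation rests on 1 count in AAVS IL4 line 2 set against 0 or 1 count per library. It holds on CPM and not on the TMM scale, where line 2 went the other way by 0.12. SOCS4 (-0.16, SE 0.27, adjusted p = 0.732), SOCS5 (-0.55, SE 0.28, adjusted p = 0.257) and SOCS7 (0.048, SE 0.26, adjusted p = 0.919) had overlapping groups and no call by edgeR. Values for these groups share the AAVS IL4 libraries with the IL4 response of the AAVS pools, so the 2 comparisons are not independent.

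**Figure D4:**
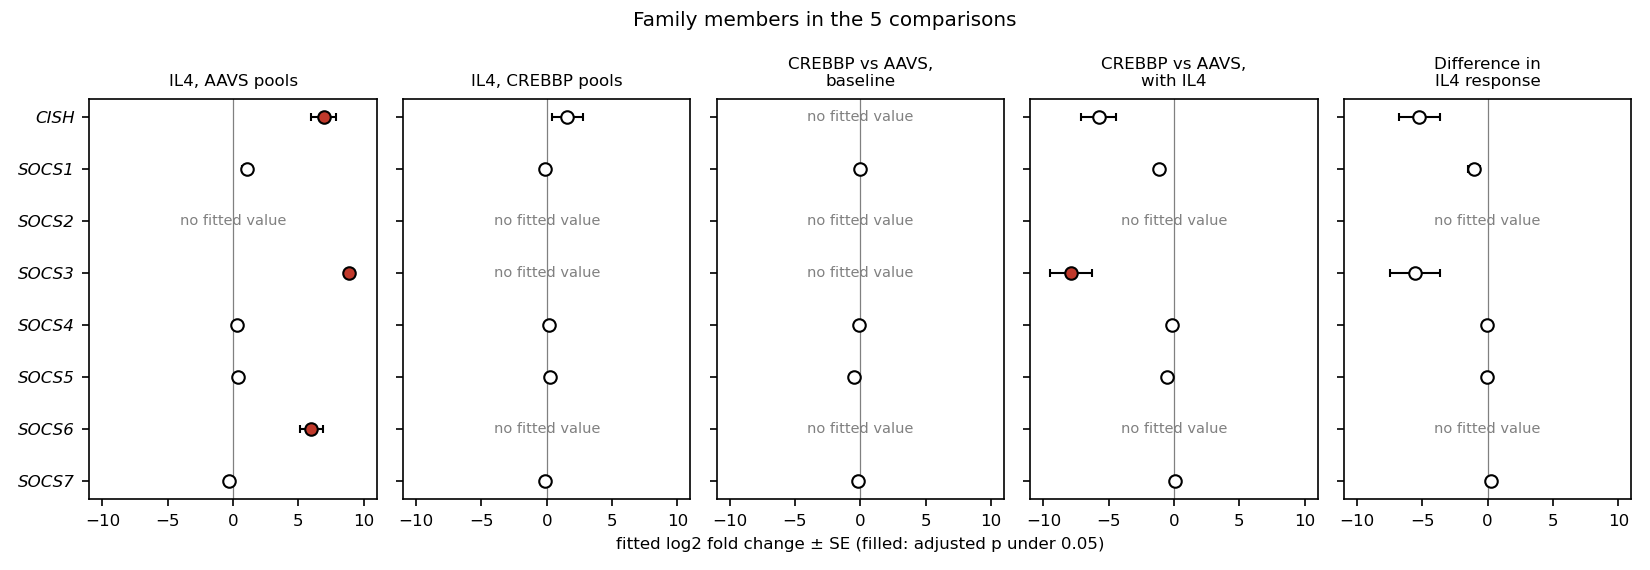
Fitted log2 fold change and SE (edgeR, horizontal axis) of each member in the 5 comparisons, with filled points for an adjusted p under 0.05 and a note where no value was fitted. The filled points are SOCS3, CISH and SOCS6 for IL4 in the AAVS pools (8.89, 6.95 and 5.99) and SOCS3 for CREBBP against AAVS pools with IL4 (-7.89).

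Whether the response to IL4 itself differed between CREBBP and AAVS pools was tested with an interaction term over all 16 libraries. No member passed: edgeR called 0 of the 6 members with a fitted value, with 3 at an unadjusted p under 0.05 and 2 by DESeq2, where 0.638% of 21932 genes were called and 13.3% were at an unadjusted p under 0.05. The difference in log2 response was -5.23 for CISH (SE 1.60, adjusted p = 0.195), -5.57 for SOCS3 (SE 1.94, adjusted p = 0.259) and -1.06 for SOCS1 (SE 0.48, adjusted p = 0.365, edgeR). In each of these the response was lower in the CREBBP pool of 4 of 4 lines, with line 2 the closest to 0 for CISH (-0.71) and SOCS3 (-2.96) on the TMM scale. DESeq2 called CISH (-5.28, adjusted p = 0.0364) and SOCS3 (-6.82, adjusted p = 0.00252), and with no filter on low counts edgeR called CISH (adjusted p = 3.77e-11). SOCS4 (-0.019, SE 0.29), SOCS5 (-0.043, SE 0.32) and SOCS7 (0.28, SE 0.31) had differences within 1 SE of 0. For SOCS6, at 0 in the CREBBP pools, this fit gave no SE. Other edgeR fits gave differences of -6.09 (DESeq2 size factors) and -5.74 (no replicate block), neither of them called, and these depend on the prior count. DESeq2 gave -6.48 without an adjusted p. None of these values is a bound.

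Genes around the family in the pathway were counted in lists chosen with earlier results known. Of 14 receptor chains, JAK kinases and STAT factors, 3 rose with IL4 in the AAVS pools, where 2.39% of all genes were called higher, and the list had a median log2 fold change of 1.23 against 0.014 over all genes. They were IL13RA1, which pairs with IL4R in the type II receptor (log2 fold change 6.34, SE 0.63, adjusted p = 0.00865), STAT4, which transmits IL12 (8.10, SE 0.997, adjusted p = 0.0162), and the kinase JAK1 (1.28, SE 0.21, adjusted p = 0.0340, edgeR). JAK1 was at 111 ± 29.1 CPM in AAVS baseline, 298 ± 148 in AAVS IL4, 75.8 ± 22.4 in CREBBP baseline and 62.2 ± 9.07 in CREBBP IL4. With IL4, STAT4, JAK1 and STAT5A were lower in the CREBBP pools, where 3.42% of all genes were called lower (log2 fold changes -11.30, -1.87 and -2.41, adjusted p = 0.0159, 0.0281 and 0.0390, edgeR), and JAK1 alone of the 14 passed the test of the difference in response (-1.38, SE 0.27, adjusted p = 0.0470, edgeR), which 0.638% of all genes passed. STAT4 was at 0 in all 8 CREBBP libraries, so its fitted value is not a bound. All 14 passed the filter for IL4 in the AAVS pools, and 12 of them in the comparison of the baseline groups. The others entered through the AAVS IL4 libraries, so the counts and the median of this list are only a description. STAT6, the factor that carries the IL4 signal, was at 464 ± 194 CPM in AAVS baseline and 423 ± 105 in AAVS IL4 (-0.12, SE 0.26, adjusted p = 0.824, edgeR).

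The other brakes on the pathway did not pass the test. Over all genes edgeR called 2.4% for IL4 in the AAVS pools, 0% for IL4 in the CREBBP pools, 0% at baseline, 4.39% with IL4 and 0.638% for the difference in response, and 16%, 2.75%, 12.8%, 25.6% and 13.3% were at an unadjusted p under 0.05 in that order. At these shares a count of 0 in a short list says little about the list. Of 12 phosphatases, PIAS proteins, SH2B3 and CBL proteins, edgeR called 0 in each of the 5 comparisons, with 2, 0, 1, 4 and 2 at an unadjusted p under 0.05 and 1, 0, 1, 2 and 1 called by DESeq2 in the same order. Their median log2 fold change with IL4 in the AAVS pools was -0.012. Of 7 components of the ligase that the SOCS box recruits, among them CUL5, ELOB and ELOC, edgeR called 0 in each comparison, with 0, 1, 1, 4 and 1 at an unadjusted p under 0.05 and 0, 0, 0, 3 and 0 called by DESeq2. CUL5 was at 50.1 ± 13.8 CPM in AAVS baseline and 43.7 ± 7.30 in AAVS IL4.

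Cytokine genes whose receptors use JAK kinases were mostly close to 0, and 3 of 15 could be tested for IL4 in the AAVS pools, of which 2 were called higher against 2.39% of all genes. These 2 were close to 0 in AAVS baseline, so they entered the test through the AAVS IL4 libraries. IL6, an inducer of STAT3, rose from 0.0486 ± 0.0600 to 30.2 ± 37.1 CPM (log2 fold change 9.005, SE 0.43, adjusted p = 0.000799), and IL7, the lymphocyte growth factor, rose from 0.0737 ± 0.0583 to 7.65 ± 4.54 CPM (6.40, SE 0.91, adjusted p = 0.0232, edgeR). Both were lower in the CREBBP pools with IL4 (-10.09 and -6.04, adjusted p = 0.00209 and 0.0268, edgeR). Of 12 other genes commonly used as STAT targets, 10 could be tested and 2 were called higher in the AAVS pools, against the same 2.39%. They were NFIL3 (2.71, SE 0.47, adjusted p = 0.0412) and FCER2, which encodes the IgE receptor CD23 (2.71, SE 0.49, adjusted p = 0.0475, edgeR). With IL4, 1 of the 12, CCND2, was lower in the CREBBP pools, against 3.42% of all genes (-3.24, SE 0.59, adjusted p = 0.0334, edgeR). All 12 passed the filter there and 10 in the comparison of the baseline groups, so this count too is only a description. In the CREBBP pools edgeR called 0 genes of these 5 lists with IL4, with 0 to 2 of each list at an unadjusted p under 0.05 and 0 by DESeq2.

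Among themselves, CISH, SOCS3 and SOCS6 had the most similar patterns, which is a description over 16 libraries that share their lines and of which 4 stand apart. With the mean of each line removed, Pearson's r on log2 CPM was 0.952 between SOCS3 and SOCS6, 0.943 between CISH and SOCS3 and 0.897 between CISH and SOCS6. SOCS2 came next, with r of 0.799 with CISH, 0.817 with SOCS3 and 0.817 with SOCS6, on few counts. SOCS1 had r of 0.760 with SOCS3, 0.696 with SOCS6 and 0.635 with CISH, while SOCS7 had r of -0.574 with CISH. The genes most like CISH of 21931 were LINC00943 (r 0.972), GPAT3 (0.970), ENSG00000286327 (0.969), ENSG00000290879 (0.968) and IL4R (0.966), and 326 genes had an r of at least 0.9. IL4R, which encodes the receptor chain that binds IL4, was at 96.6 ± 26.5 CPM in AAVS baseline, 465 ± 283 in AAVS IL4, 91.3 ± 17.9 in CREBBP baseline and 108 ± 32.3 in CREBBP IL4.

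For SOCS3 the most similar genes were RTKN2 (r 0.983), CALCRL (0.980), GRAMD2B (0.980), IRF4 (0.979) and ZNF222 (0.978), with 627 genes at 0.9 or more. IRF4, a transcription factor of activated B cells and plasma cells, went from 0.611 CPM in AAVS baseline to 157 CPM in AAVS IL4 on average, against 0.207 and 0.347 CPM in the CREBBP groups. For SOCS6 they were ZNF677 (r 0.996), DTHD1 (0.993), GIMAP5 (0.993), CFLAR (0.992) and SH2D1A (0.991), with 705 genes at 0.9 or more. SH2D1A, an adaptor of T and NK cells, was at 3.76 CPM in AAVS IL4 and at 0 in the other groups. Of the nearest protein-coding neighbours of these 3 members, HEMK1 and DOCK3 beside CISH, PGS1 beside SOCS3 and RTTN beside SOCS6 could be tested with IL4 in the AAVS pools, and edgeR called none of them. Their log2 fold changes were 0.38 (SE 0.26, adjusted p = 0.477), 2.20 (SE 1.06, adjusted p = 0.359), 0.44 (SE 0.19, adjusted p = 0.321) and 0.069 (SE 0.20, adjusted p = 0.879) in that order.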

How the data were processed

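The 16 RNA-seq libraries of targeted pools from 4 lymphoma lines were used, and replicates are the lines. With the block, p-values measure how far the differences within lines vary from line to line. Each line had 1 library per group, so noise of single libraries is part of that spread. Per the labels and the study's methods, the authors trimmed reads with cutadapt 2.3, aligned them to GRCh38 with STAR 2.7.8a and estimated counts per gene with RSEM 1.3.3, with FastQC 0.11.8 and MultiQC 1.7 for quality. The authors deposited these estimated counts as whole numbers, 1 table per library of 62710 genes, and they were used as deposited. RSEM shares reads among genes they match, and the strand setting is not given in the sources used here. Of the gene identifiers, 62639 (99.9%) were in GENCODE 44, and 4 rows of no human gene were at 0. Counts of libraries within a group differed by a chi-square of 98.7 or more per degree of freedom, far beyond sampling noise.

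CPM used the total count. Comparisons used edgeR 4.0.16 (R 4.3.3) with filterByExpr, TMM and quasi-likelihood tests, a term for each line as a block, and Benjamini-Hochberg adjustment over all genes tested, with a threshold of 0.05. Each fit held only the groups compared, except the difference in response, which held all 16. That fit had a term for each targeted pool (line by genotype) in place of each line. The AAVS and CREBBP pools of a line were thus not paired in it. The SE is the log2 fold change over the root of F. TMM-scaled line differences used a prior count of 2. Neighbours in the order of levels were compared on log2 with 0.01 CPM per kilobase added. Pearson's r used log2 CPM. The procedure was tested on simulated data. Same-numbered libraries come from 1 line, and their deviations from the group means had a median correlation of 0.298 to 0.711 per line, lowest -0.158 in a pair of line 3.

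Members are named throughout, list genes where an adjusted p was under 0.05, and of similar genes the 5 with the highest r. The members and lists were chosen with earlier results of these data known. Alternatives were DESeq2 size factors, no filter on low counts, no block, each line left out, DESeq2 1.42.0, 1 fit of all 16 libraries and, for levels, 3 other scalings. Total counts of 19649735 to 61981976 set the precision, with 3 counts as the floor of a library. Intervals and floors cover counting error only.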

Additional observations from a re-analysis of the deposited data

Results flagged for a closer look

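In 30 groups of 4 libraries, 1 library was checked for lying far from the others, by the gap to its nearest neighbour over the range of the group against Dixon's critical value at 95%. Chance flags about 1 in 20 such groups, and 4 were found.

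CISH in CREBBP IL4 was 3.83 CPM in line 2 (gap over range 0.949), the only library of that group above 1 CPM. SOCS6 was 2.04 CPM in line 3 of AAVS IL4 (0.847), the library with the highest T-cell and resting B-cell marker sums. SOCS6 was also 0.0410 CPM in line 3 of AAVS baseline, which is 2 counts where the other lines had 0. SOCS7 was 40.4 CPM in line 1 of CREBBP baseline (0.852), within the range of AAVS baseline.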

How the results depend on the processing

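The SOCS3 call for IL4 in the AAVS pools held under each alternative, and the other calls of members were lost when 1 or more lines were left out, as given with each. Counts of genes called moved most, and the cause was not tested. For IL4 in the AAVS pools 488 genes were called, and 1851 with no filter on low counts, 2062 by DESeq2, 1270 in 1 fit of all 16 libraries and 64 to 1035 with a line left out (members 3, and 1 to 3). For IL4 in the CREBBP pools 0 became 40 with no filter and 1 by DESeq2. At baseline 0 became 586 with no filter, 511 by DESeq2 and 0 to 515 with a line left out. For the pools with IL4, 859 became 3466 with no filter, 540 without the replicate block, 4154 by DESeq2, 4393 in 1 fit and 25 to 2547 with a line left out (members 1, then 4 with no filter, 3 by DESeq2, 4 in 1 fit and 0 to 3). For the difference in response, 140 became 1191 with no filter, 2 without the replicate block, 1099 by DESeq2 and 16 to 264 with a line left out (members 0, then 1 with no filter and 2 by DESeq2).

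Directions that reversed belonged to small differences that passed no test. Without the block the difference in response was 0.039 for SOCS4 and 0.019 for SOCS5. With a line left out the log2 fold change of SOCS4 ranged from -0.0032 to 0.52 for IL4 in the AAVS pools, from -0.38 to 0.097 at baseline, from -0.47 to 0.034 with IL4 and from -0.33 to 0.13 for the difference. That of SOCS1 ranged from -0.34 to 0.041 for IL4 in the CREBBP pools and from -0.20 to 0.24 at baseline, that of SOCS7 from -0.084 to 0.26 with IL4 and from -0.023 to 0.41 for the difference, and that of SOCS5 from -0.21 to 0.013 for the difference. The mean level of SOCS1 in AAVS IL4 was 59.2 CPM on depth times the TMM factor and 71.8 CPM without 7SK and 7SL, against 65.9 CPM. Without IL4, depths of 29196801 counts or more gave at most 5 counts of SOCS2, 2 of SOCS6 and 14 of SOCS3 per library.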
